A study of Homo sapiens with 6 samples.

Results

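The 10 genes described here encode NF-kB transcription factor subunits, proteins that restrain NF-kB and well-known products of its activity. They are NFKB1, NFKB2, RELA and RELB (subunits), NFKBIA and TNFAIP3 (feedback inhibitors), and BIRC3, ICAM1, SOD2 and PTGS2 (targets). They were taken by gene symbol from a table of 22925 genes, as a set chosen with earlier results of these data known, and all 10 were found. The RNA came from HT-1080, an established human fibrosarcoma line, grown in DMEM with serum. One group received 20 μM PhenDC3 in 1% DMSO for 48 h and the other 1% DMSO alone for 48 h, with 3 libraries each. The study asked how transcript levels respond to PhenDC3, a compound that holds G quadruplexes, folds of guanine-rich nucleic acid, in their folded state.

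NF-kB is a family of dimeric transcription factors that are held in the cytoplasm of resting cells by IkB proteins. In the canonical route the IkB kinase complex marks IkBα for destruction and frees dimers such as RELA with the NFKB1 product. In the noncanonical route the kinase NIK leads to processing of the NFKB2 precursor, whose product pairs with RELB. The factors bind short kB sites in DNA and switch on, among many genes, those of their own inhibitors, so the response limits itself. Post-translational release of the dimers is not read by RNA levels.

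The start regions of several members hold kB sites, and they are shown because they carry the feature by which the family is known to act on its own genes. RefSeq promoter windows on GRCh38.p14, 250 bases before to 50 bases after an annotated start, were at hand for 9 of the 10 members, 16 windows in all. The kB consensus was searched on both strands and matched in at least 1 window of 5 members. These were NFKB1, NFKB2, NFKBIA, TNFAIP3 and BIRC3, while the windows of RELA, ICAM1, SOD2 and PTGS2 had no match to these letters. A match was held by 37.5% of the 16 windows, against 11.3% of all 35116 RefSeq windows. The windows below lie at chr4:102501109-102501408 (plus strand, NFKB1), chr10:102394328-102394627 (plus strand, NFKB2), chr14:35404700-35404999 (minus strand, NFKBIA), chr6:137867009-137867308 (plus strand, TNFAIP3) and chr11:102317234-102317533 (plus strand, BIRC3). Each is written 5′ to 3′ along the gene, with kB matches in capitals.
NFKB1: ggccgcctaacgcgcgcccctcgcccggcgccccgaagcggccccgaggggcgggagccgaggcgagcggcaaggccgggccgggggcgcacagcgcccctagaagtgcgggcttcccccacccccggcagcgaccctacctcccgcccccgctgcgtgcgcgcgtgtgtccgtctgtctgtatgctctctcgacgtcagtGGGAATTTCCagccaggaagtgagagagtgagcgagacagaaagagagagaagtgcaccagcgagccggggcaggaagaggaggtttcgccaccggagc
NFKB2: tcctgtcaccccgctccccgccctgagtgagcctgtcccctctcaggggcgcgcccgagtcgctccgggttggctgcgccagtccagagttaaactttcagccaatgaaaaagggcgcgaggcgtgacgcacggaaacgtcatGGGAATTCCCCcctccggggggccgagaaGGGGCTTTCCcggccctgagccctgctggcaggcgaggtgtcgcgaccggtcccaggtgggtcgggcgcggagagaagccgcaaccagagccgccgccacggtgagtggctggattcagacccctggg
NFKBIA: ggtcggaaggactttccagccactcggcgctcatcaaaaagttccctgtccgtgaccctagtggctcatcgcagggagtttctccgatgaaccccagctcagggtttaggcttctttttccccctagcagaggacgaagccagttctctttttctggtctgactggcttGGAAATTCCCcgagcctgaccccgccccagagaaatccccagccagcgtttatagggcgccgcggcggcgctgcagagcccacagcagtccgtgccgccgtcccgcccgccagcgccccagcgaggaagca
TNFAIP3: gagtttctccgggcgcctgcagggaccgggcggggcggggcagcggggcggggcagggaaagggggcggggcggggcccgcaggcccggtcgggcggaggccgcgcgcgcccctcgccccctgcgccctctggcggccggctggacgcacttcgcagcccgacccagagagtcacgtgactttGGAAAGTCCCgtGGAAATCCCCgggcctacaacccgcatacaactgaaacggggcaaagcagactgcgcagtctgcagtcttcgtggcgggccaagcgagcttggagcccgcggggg
BIRC3: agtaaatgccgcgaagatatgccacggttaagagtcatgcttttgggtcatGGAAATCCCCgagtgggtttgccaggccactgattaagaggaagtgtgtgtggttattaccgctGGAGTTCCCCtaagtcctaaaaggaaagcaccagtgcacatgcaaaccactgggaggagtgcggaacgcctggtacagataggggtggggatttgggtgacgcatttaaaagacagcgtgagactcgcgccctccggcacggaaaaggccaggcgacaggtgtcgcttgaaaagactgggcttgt
The NFKB1 match, GGGAATTTCC, begins 49 bases before the start. The NFKB2 window holds GGGAATTCCC and GGAATTCCCC, which overlap, at 107 and 106 bases before the start, and GGGGCTTTCC at 78 bases. A further NFKB2 window, for another annotated start, holds GGGGCTTCCC 176 bases and GGGACTTTCC 21 bases before that start. The NFKBIA match, GGAAATTCCC, lies 81 bases before the start. TNFAIP3 has GGAAAGTCCC at 67 and GGAAATCCCC at 55 bases before the start, and BIRC3 has GGAAATCCCC at 199 and GGAGTTCCCC at 135 bases.

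The libraries recovered as whole reads held 7371056 to 9386691 reads with PhenDC3 and 12574952 to 14292987 with DMSO. Values below are normalized read counts, that is, reads divided by the authors' size factor for the library. Reads from the mitochondrial genome made up 15.4% to 15.5% of each PhenDC3 library and 3.72% to 3.96% of each DMSO library. DMSO replicate 3 stood apart from the other DMSO libraries: its chi-square against them, divided by the degrees of freedom, was 7.12 and 7.75, where other pairs within a group gave 1.45 to 2.68. Of 7 tested mesenchymal markers 2 rose and 4 fell, and the 9 listed summed to 32537 to 33338 with PhenDC3 and 45824 to 49543 with DMSO. The 4 that fell were VIM, FN1, PDGFRB and SPARC, with VIM at 13620 ± 153 with PhenDC3 and 25153 ± 2162 with DMSO (SD, n = 3 each). The collagen genes COL5A1 and COL1A1 rose, COL5A1 averaging 4795 with PhenDC3 and 3107 with DMSO, and COL1A1 83.2 and 53.9, with SPARC and COL1A1 named after their values were seen. Of 8 epithelial markers 3 were in the table, of 6 endothelial markers 4 and of 9 leukocyte markers 4. Their summed values were 78.7 to 86.3 with PhenDC3 and 59.3 to 72.4 with DMSO for the epithelial genes, mostly CLDN4, 10.4 to 16.6 and 2.32 to 6.90 for the endothelial genes, and 26.2 to 43.2 and 13.1 to 17.1 for the leukocyte genes. ELF3, an epithelial transcription factor, averaged 10.6 with PhenDC3 and 0.259 with DMSO, and CD68, a macrophage marker, 15.4 and 5.98, and both were called higher. The defining markers EPCAM, CDH1, PECAM1 and PTPRC were not found by symbol in the table, and VWF was at 0 in some libraries. The part of these markers in the results below was not tested. In bulk RNA, fewer cells of a kind and less RNA per cell cannot be told apart. Nothing in the labels says that the libraries of a group came from separate cultures, so the tests measure only the spread between these libraries.

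Of the 10 members 7 rose with PhenDC3, none fell, 2 did not pass and 1 had too few reads to test. SOD2, BIRC3, RELB and NFKB2 rose most, by 3.28-fold, 3.46-fold, 2.80-fold and 2.27-fold. NFKBIA, RELA and, less firmly, PTGS2 rose by smaller amounts, while NFKB1 and TNFAIP3 did not pass. The test was limma on log2(normalized count + 1), two-sided, over the 16482 genes whose mean reached 5. A change was called at a Benjamini-Hochberg adjusted p under 0.05. Folds of single genes are ratios of the group means of normalized counts, while log2 fold changes are those of the limma fit unless another source is named. Across all tested genes 29.2% rose and 30.4% fell, 59.6% together, so a call by itself is common in these data. The median log2 fold change of the 9 tested members was 0.75, against -0.02 over all tested genes. The PhenDC3 and DMSO libraries did not overlap in 7 of the 9, with PhenDC3 above in 6, where 64.1% of all tested genes did not overlap and 31.5% had PhenDC3 above.

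**Figure D1:**
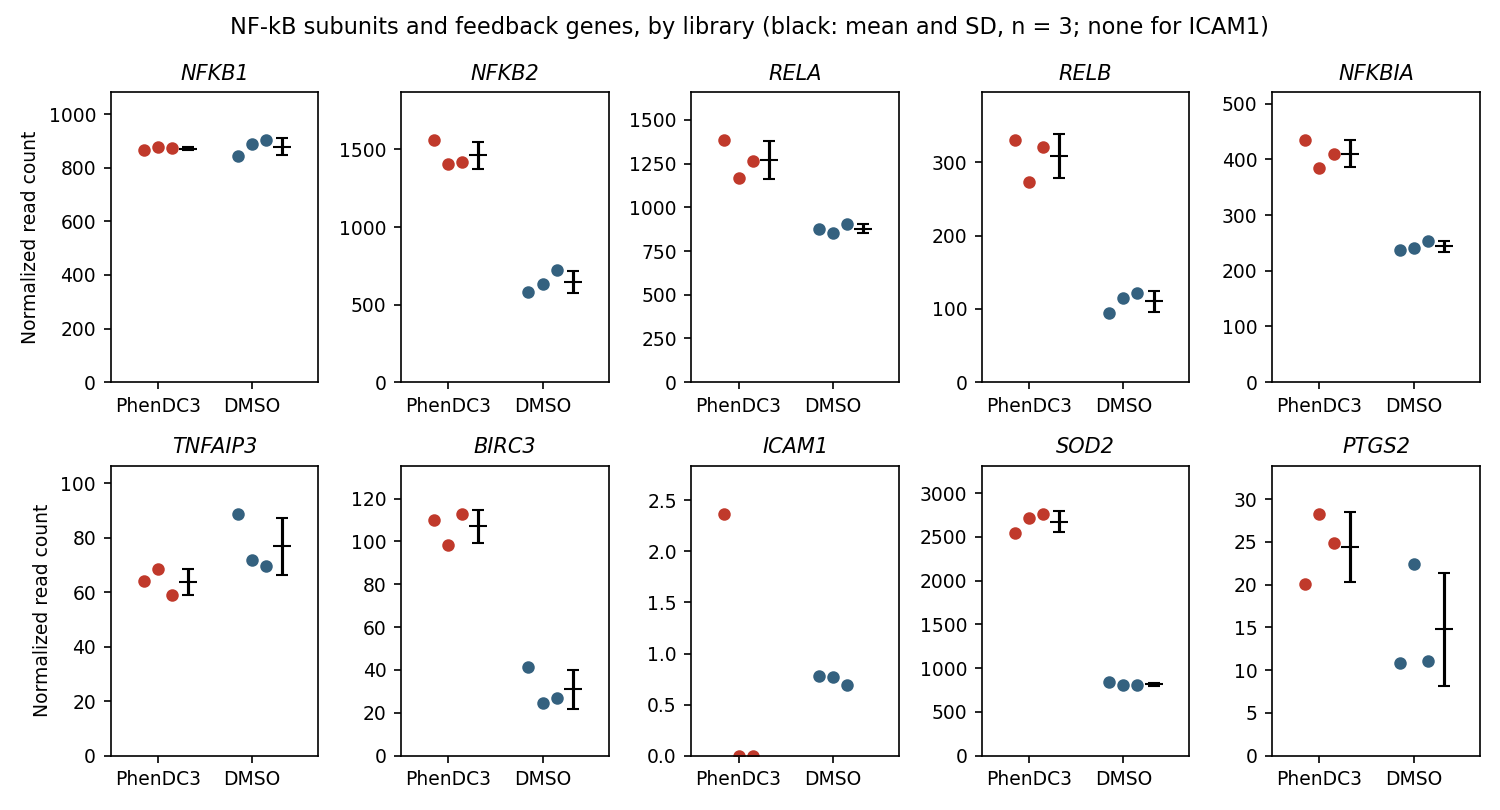
Normalized read count of each member in each library, on a linear axis from 0 that differs between panels, with PhenDC3 in red, DMSO in blue and the mean and SD (n = 3) in black. SOD2, BIRC3, RELB, NFKB2, RELA and NFKBIA are separated with PhenDC3 above, TNFAIP3 is separated with PhenDC3 below, NFKB1 and PTGS2 overlap, and ICAM1 stays at 2.37 or less.

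Among the subunits, NFKB2 and RELB rose most. NFKB2 (ENSG00000077150, chromosome 10), the precursor of p52, had 1559, 1404 and 1421 normalized counts with PhenDC3, against 578, 633 and 721 with DMSO. Every PhenDC3 library lay well above every DMSO library. The log2 fold change was 1.18 (SE 0.08, 95% interval 1.02 to 1.35, limma adjusted p = 1.23e-10), and 7.54% of tested genes had a larger one. RELB (ENSG00000104856, chromosome 19), the usual partner of p52, had 330.2, 274 and 321 with PhenDC3 and 94.2, 114 and 122 with DMSO. The lowest PhenDC3 library was again far above the highest DMSO library. Its log2 fold change was 1.48 (SE 0.12, 95% interval 1.24 to 1.72, limma adjusted p = 1.25e-09), with 4.88% of tested genes above it.

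RELA (ENSG00000173039, chromosome 11), which encodes p65, the main activating subunit of the canonical route, had 1383, 1167 and 1265 normalized counts with PhenDC3 and 878, 853 and 906 with DMSO. The groups were separate, but the rise was smaller, at 1.45-fold (log2 0.53, SE 0.07, 95% interval 0.38 to 0.68, limma adjusted p = 2.85e-06). NFKB1 (ENSG00000109320, chromosome 4), the precursor of p50, had 865, 875 and 873 with PhenDC3 and 844, 890 and 902 with DMSO. All 3 PhenDC3 libraries lay inside the DMSO range. The log2 fold change was -0.01 (SE 0.07, limma adjusted p = 0.888), with a 95% interval of -0.15 to 0.13 that leaves out a change of the size seen for any other subunit. Its window with a kB match is the one printed above, so a match stood beside both a transcript that rose and one that did not pass.

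**Figure D2:**
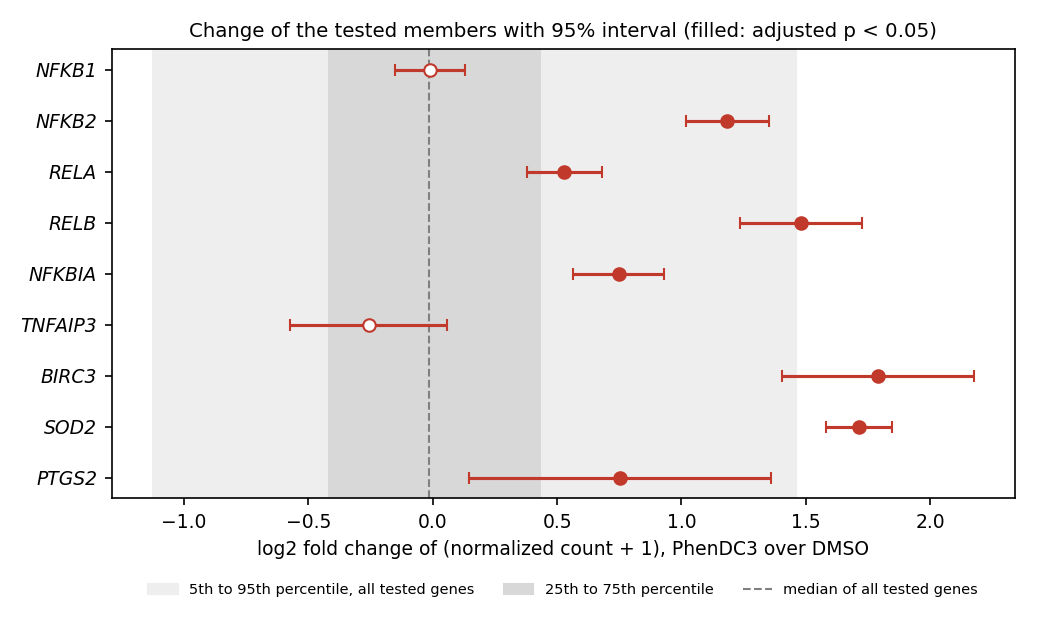
The log2 fold change of normalized count + 1, PhenDC3 over DMSO, for the 9 tested members with the 95% interval from limma, filled where the adjusted p was under 0.05. Grey bands give the 5th to 95th and the 25th to 75th percentiles of all tested genes, the outer one running from -1.13 to 1.46. The estimates of BIRC3, SOD2 and RELB lie above the outer band, though the intervals of BIRC3 and RELB reach into it. NFKB1 lies at the centre of the bands.

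Because reads scale with transcript length, the subunits were ranked by normalized counts per kilobase of annotated exon (GENCODE 29). With PhenDC3 the order was NFKB2 at 326 ± 18.9, RELA at 233 ± 19.8, NFKB1 at 139 ± 0.85 and RELB at 102 ± 9.98 (SD, n = 3). With DMSO it was RELA at 161 ± 4.87, NFKB2 at 144 ± 16.1, NFKB1 at 140.5 ± 4.85 and RELB at 36.3 ± 4.75. In the DMSO libraries RELA and NFKB2 overlapped, as did NFKB2 and NFKB1, so the order of those levels is within their spread. With PhenDC3 no neighbours overlapped. As a share of the summed level per kilobase of the 4 subunits, NFKB2 made up 40.8% ± 0.75 with PhenDC3 and 29.8% ± 1.59 with DMSO, and RELB 12.7% ± 0.72 and 7.53% ± 0.62. NFKB1 made up 17.5% ± 1.09 with PhenDC3 and 29.2% ± 0.87 with DMSO, and RELA 29.1% ± 0.82 and 33.5% ± 1.56. These shares assume that the annotated exons are the ones used in these cells.

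**Figure D3:**
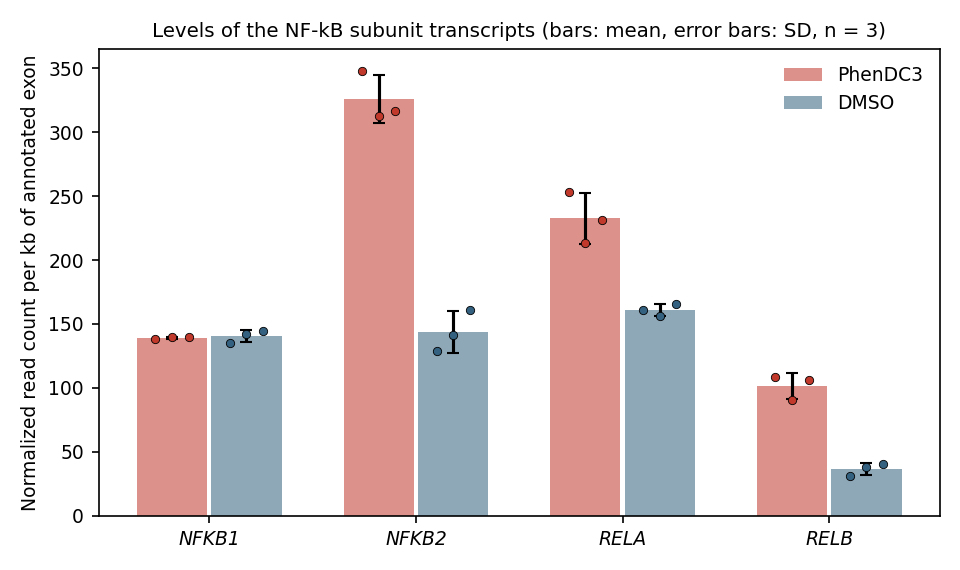
Normalized read count per kilobase of annotated exon for the 4 subunit transcripts, with bars for the mean, error bars for the SD (n = 3) and a point for each library. With PhenDC3 the NFKB2 bar is the tallest at 326, while with DMSO RELA, NFKB2 and NFKB1 lie between 140.5 and 161.

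Ratios of normalized counts + 1 within a library hardly depend on how libraries were scaled, and 7 of them were compared. NFKB2 stood at 1.80, 1.60 and 1.63 times NFKB1 with PhenDC3 and at 0.685, 0.712 and 0.800 times with DMSO, above 1 in each PhenDC3 library and below 1 in each DMSO library. This ratio was 2.29-fold higher (exact permutation p = 0.1). RELB to RELA was 0.239, 0.235 and 0.255 with PhenDC3 and 0.108, 0.135 and 0.136 with DMSO, a 1.93-fold higher ratio (log2 difference 0.95, exact permutation p = 0.1). NFKBIA to RELA differed little though separably, at 0.314 to 0.331 with PhenDC3 and 0.270 to 0.283 with DMSO (log2 difference 0.22). Of the 7 ratios 6 did not overlap between the groups, beside 64.1% of all tested genes taken singly. The share among other gene pairs was not computed. The exact two-sided p of 0.1 is the smallest that 3 libraries against 3 can give, and it is 0.117 after adjustment over the 7 pairs, so none can pass.

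The feedback inhibitors did not move alike. NFKBIA (ENSG00000100906, chromosome 14) encodes IkBα, which binds the dimers and takes them out of the nucleus. It had 434, 386 and 411 normalized counts with PhenDC3 and 237, 240.5 and 254 with DMSO, and the groups were separate. It rose 1.68-fold (log2 0.75, SE 0.09, 95% interval 0.56 to 0.93, limma adjusted p = 3.65e-07). TNFAIP3 (ENSG00000118503, chromosome 6) encodes A20, a ubiquitin-editing enzyme that shuts down signalling upstream of the IkB kinases. It had 63.9, 68.5 and 59.0 with PhenDC3 and 88.7, 71.9 and 69.6 with DMSO. The PhenDC3 libraries lay just below the DMSO libraries without overlap, yet the difference did not pass (log2 -0.26, SE 0.15, 95% interval -0.57 to 0.06, limma adjusted p = 0.151). TNFAIP3 to NFKBIA was 0.149, 0.180 and 0.146 with PhenDC3 and 0.378, 0.302 and 0.277 with DMSO, with no overlap, the PhenDC3 ratio being 0.499 of the DMSO ratio (exact permutation p = 0.1). TNFAIP3 shares 95 exonic bases with an antisense gene that had at most 5.92 normalized counts in any library.

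**Figure D4:**
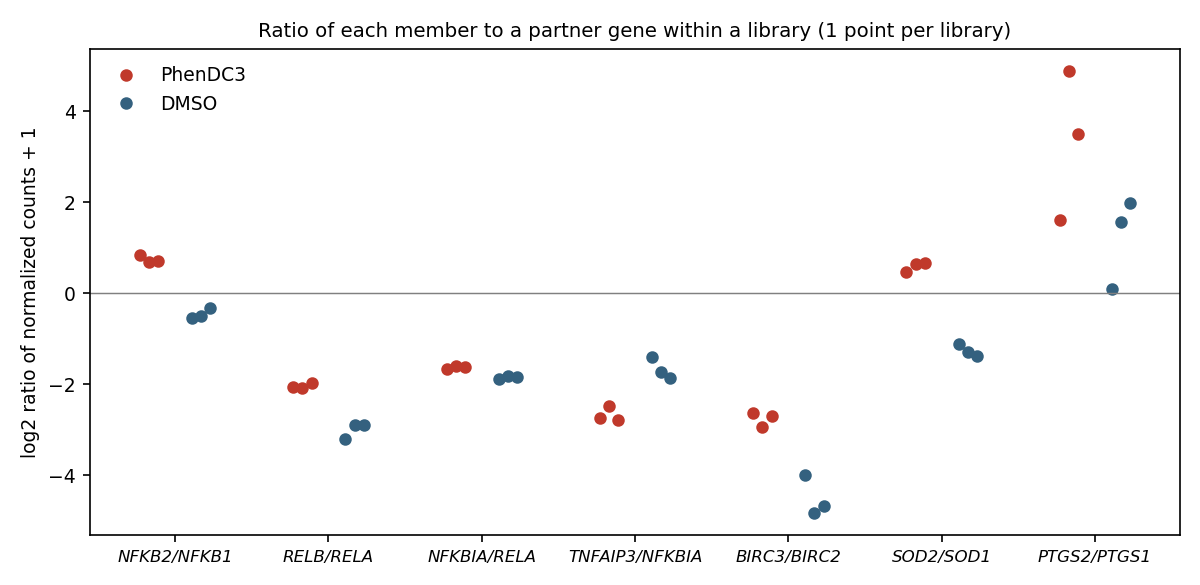
The log2 ratio, within a library, of each listed member to a partner gene, with 1 point per library, PhenDC3 in red and DMSO in blue. The NFKB2/NFKB1 and SOD2/SOD1 points lie above 0 in every PhenDC3 library and below 0 in every DMSO library, TNFAIP3/NFKBIA is lower with PhenDC3, and PTGS2/PTGS1 overlaps.

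Of the 4 target genes, SOD2 and BIRC3 rose clearly. SOD2 (ENSG00000112096, chromosome 6), the manganese superoxide dismutase of mitochondria, had 2543, 2717 and 2762 normalized counts with PhenDC3, against 836, 804 and 805 with DMSO. All PhenDC3 libraries lay far above all DMSO libraries, and its adjusted p was the smallest of the members (log2 1.71, SE 0.06, 95% interval 1.58 to 1.85, limma adjusted p = 1.44e-14). Its cytosolic counterpart SOD1 was at 1766 ± 55.5 with PhenDC3 and 1955 ± 149 with DMSO (SD, n = 3 each) and did not pass (limma adjusted p = 0.0708), though it was called lower with TMM scaling (adjusted p = 0.0237) and without DMSO replicate 1 (adjusted p = 0.0221). SOD2 stood at 1.39, 1.57 and 1.59 times SOD1 with PhenDC3 and at 0.465, 0.408 and 0.385 times with DMSO. SOD2 shares 845 exonic bases on the same strand with a second annotated gene of that name (ENSG00000285441), not analysed here, so how reads there were assigned is uncertain. It shares 298 exonic bases with WTAP on the opposite strand, and whether counting used strand is not stated in the sources. WTAP had 882, 862 and 966 with PhenDC3 and 818, 855 and 904 with DMSO.

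BIRC3 (ENSG00000023445, chromosome 11) encodes cIAP2, a ubiquitin ligase that works in tumour necrosis factor receptor signalling and limits cell death. It had 110.1, 98.3 and 113 normalized counts with PhenDC3 and 41.2, 24.7 and 26.9 with DMSO, with no overlap, from 245 and 124 reads. The log2 fold change was 1.79 (SE 0.18, 95% interval 1.40 to 2.18, limma adjusted p = 5.97e-08). Its paralog and neighbour BIRC2, which encodes cIAP1, was at 727 ± 40.8 with PhenDC3 and 702 ± 30.2 with DMSO (SD, n = 3 each) and did not pass (limma adjusted p = 0.575). BIRC3 to BIRC2 was 0.163, 0.130 and 0.154 with PhenDC3 and 0.0630, 0.0353 and 0.0394 with DMSO, a 3.34-fold higher ratio (log2 difference 1.74, exact permutation p = 0.1).

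PTGS2 (ENSG00000073756, chromosome 1), the inducible cyclooxygenase of prostaglandin synthesis, was low, with 20.1, 28.3 and 24.9 normalized counts with PhenDC3 and 10.9, 22.4 and 11.03 with DMSO. DMSO replicate 2 lay among the PhenDC3 libraries. The rise passed in limma (log2 0.75, SE 0.29, 95% interval 0.14 to 1.36, adjusted p = 0.0318) on 55 and 59 reads in all. It did not pass in edgeR (adjusted p = 0.0506), in DESeq2 (adjusted p = 0.178), without a variance trend (adjusted p = 0.0743), or without PhenDC3 replicate 2, PhenDC3 replicate 3, DMSO replicate 1 or DMSO replicate 3. Over the 6 fits that each omitted a library, its limma adjusted p ran from 0.00481 to 0.125. With edgeR the other 6 called members rose, where 29.1% of all tested genes rose and 59.6% were called. With DESeq2 the same number rose, where 21.1% of the 20258 genes with an adjusted p rose and 41.8% were called. In the authors' deposited table PTGS2 had an adjusted p of 0.187 and 6 members were higher. There 19.7% of the 21593 genes with an adjusted p were higher and 39.0% were called. The DESeq2 and deposited shares take in genes under the mean of 5, so they are not on the same genes as the limma and edgeR shares.

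ICAM1 (ENSG00000090339, chromosome 19), an adhesion molecule for leukocyte integrins, was barely detected, with 2, 0 and 0 reads with PhenDC3 and 1 read in each DMSO library. Both groups are at or under 3 reads in all, so no fold change is given. In the PhenDC3 libraries with 0 reads, the 3 reads that a count of 0 allows correspond to 4.47 normalized counts in replicate 2 and 3.94 in replicate 3, limits that cover counting error only. A difference between the groups was not detectable at this depth.

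Other genes of the pathway were taken from 9 lists of 126 genes, of which 108 were in the table and 99 were tested. Of these 42 rose and 34 fell, or 42.4% and 34.3%, with a median log2 fold change of 0.10. Across all tested genes 29.2% rose and 30.4% fell, the shares beside which the counts of each list below are to be read. In the list of the remaining subunit, further IkB proteins and other NF-kB regulators 2 of 10 rose and 4 fell. NFKBIB, which encodes IkBβ, rose 1.61-fold (limma adjusted p = 2.2e-05), while BCL3 and NFKBIZ, nuclear IkB proteins, fell to 0.593 and 0.730 of their DMSO level and COMMD1, which promotes loss of RELA from chromatin, to 0.753. REL, the fifth subunit, named here after its values were seen, had 80.5, 80.4 and 87.9 normalized counts with PhenDC3 and 85.6, 63.4 and 28.96 with DMSO. It was called higher (log2 0.61, limma adjusted p = 0.044), but the groups overlapped, DMSO replicate 3 was the low one, and without that library the log2 fold change was 0.17 (limma adjusted p = 0.405). REL also lost its call when any 1 of the PhenDC3 libraries was left out. COMMD1 lost its call without DMSO replicate 3 (limma adjusted p = 0.122), DMSO replicate 1 or PhenDC3 replicate 3 (both adjusted p = 0.0597).

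Among IkB kinases and the kinases above them 9 of 15 rose and 2 fell, with a median log2 fold change of 0.20. IRAK2, a kinase of interleukin-1 and Toll-like receptor signalling, rose 3.27-fold (limma adjusted p = 3.54e-12), TAB2 2.40-fold and TAB3 1.60-fold, both adaptors of the kinase TAK1. IKBKB, the kinase subunit that marks IkBα, fell to 0.615 of its DMSO level. MAP3K14, which encodes NIK of the noncanonical route and is named after its values were seen, was at 817 ± 19.2 with PhenDC3 and 663 ± 33.6 with DMSO (SD, n = 3 each) and rose 1.23-fold (limma adjusted p = 0.00115).

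Of 18 receptors and adaptors 7 rose and 6 fell, or 38.9% and 33.3%, beside 29.2% and 30.4% of all tested genes. TRAF1, an adaptor that is itself a known NF-kB target, rose 5.09-fold (limma adjusted p = 6.86e-10), TNFRSF12A, the receptor for TWEAK, 1.62-fold, and TRAF3, which holds NIK in check, 1.53-fold. IL1RAP, the accessory chain of the interleukin-1 receptor, fell to 0.477. Of ubiquitin ligases, deubiquitinases and their helpers 8 of 14 rose and 2 fell. CYLD, a deubiquitinase that restrains the pathway, rose 2.10-fold (limma adjusted p = 2.55e-10), N4BP1 1.76-fold and TAX1BP1, a cofactor of A20, 1.75-fold, while UBE2N, the E2 enzyme for K63-linked chains, fell to 0.659.

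In the list of other textbook targets 14 of 23 rose and 7 fell, with a median log2 fold change of 0.80. SQSTM1, the autophagy receptor p62, rose 12.9-fold, CSF1, a macrophage growth factor, 5.81-fold and the cytokine LIF 2.95-fold, while PTX3, a secreted pattern recognition protein, fell to 0.247 (limma adjusted p = 8.92e-15). These genes have other known regulators besides NF-kB. CCL2, named after its values were seen, had 0 reads with PhenDC3 and 19 with DMSO, below the mean of 5 needed for a test. The authors' deposited table gives it an adjusted p of 0.0148.

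**Figure D5:**
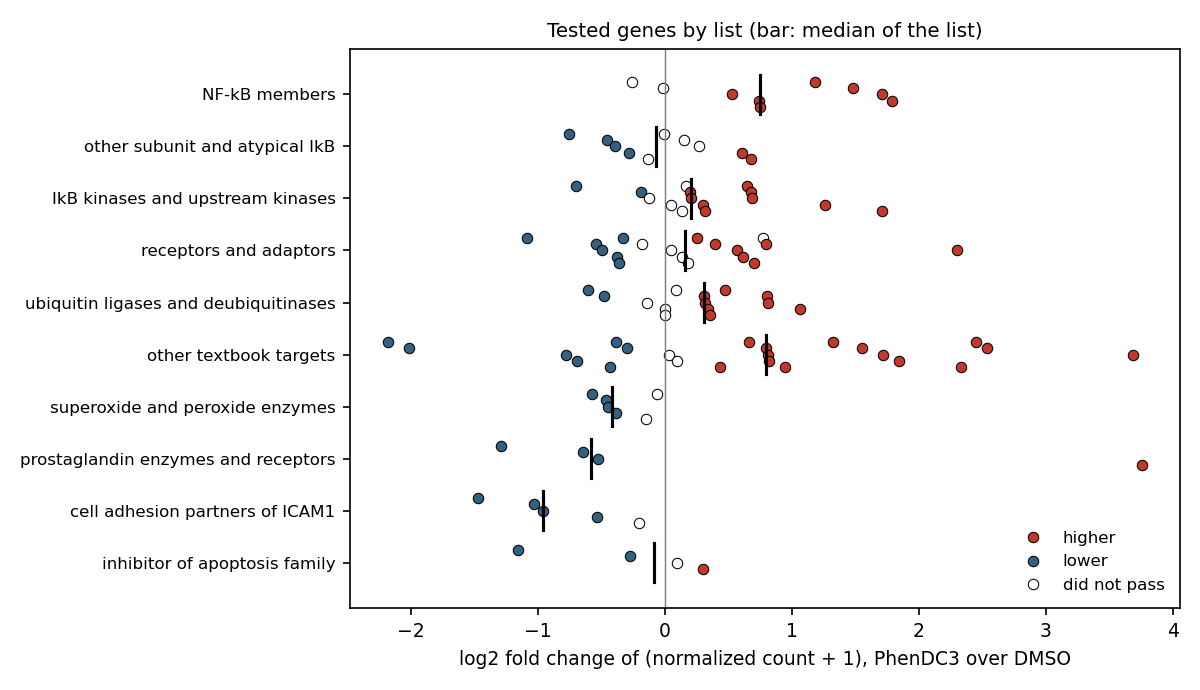
The log2 fold change of normalized count + 1, PhenDC3 over DMSO, of each tested gene in the members and the 9 pathway lists, coloured by its call, with a bar at the list's median. The medians lie at 0.75 for the members and 0.80 for other targets, and at -0.42 and -0.96 for superoxide and peroxide enzymes and for adhesion partners of ICAM1.

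The tested superoxide and peroxide enzymes other than SOD2, and the tested adhesion genes listed beside ICAM1, fell or did not pass. Of 6 superoxide and peroxide enzymes none rose and 4 fell, GPX1 to 0.668, CAT to 0.727, PRDX5 to 0.730 and PRDX3, a peroxidase of mitochondria, to 0.766, while SOD2 rose. Of 5 tested adhesion genes listed beside ICAM1 none rose and 4 fell, ALCAM to 0.360 (limma adjusted p = 1.09e-12), JAM3 to 0.513, ICAM3 to 0.683 and ICAM2 to 0.467. ICAM3 lost its call without DMSO replicate 3 (adjusted p = 0.0526), and ICAM2, at 21 and 81 reads, lost it without PhenDC3 replicate 1, DMSO replicate 1 or DMSO replicate 3 (adjusted p = 0.0699, 0.0742 and 0.062). In the list around the inhibitor of apoptosis family BIRC5, survivin, fell to 0.449 of its DMSO level and BIRC6 was called higher at 1.22-fold. HTRA2, listed there but not itself a member of that family, was called lower at 0.827. XIAP, a family member counted with the other textbook targets and named after its values were seen, rose 1.93-fold (limma adjusted p = 7.5e-09). Without DMSO replicate 3 HTRA2 had a limma adjusted p of 0.082, and BIRC6 a log2 fold change of 0.13 (limma adjusted p = 0.0604) in place of 0.30, and both lost their calls without PhenDC3 replicate 3 too, BIRC6 also without PhenDC3 replicate 2.

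Of the prostaglandin genes 4 were tested. PTGES, the inducible prostaglandin E synthase that works downstream of PTGS2, had 62.7, 38.7 and 56.4 normalized counts with PhenDC3 and 0.778, 4.64 and 4.83 with DMSO, from 122 and 14 reads. Its mean rose 15.4-fold. The limma log2 fold change, on normalized count + 1, was 3.76 (SE 0.39, limma adjusted p = 6.59e-08), a smaller change, since the added 1 weighs on the low DMSO values. The other synthases PTGES2 and PTGES3 fell to 0.694 and 0.639, and the receptor PTGER4 to 0.431. Another receptor, PTGER1, named after its values were seen, had 19 reads with PhenDC3 and 3 with DMSO, too few to test. The authors' deposited table gives PTGER1 a log2 fold change of 3.46 and an adjusted p of 0.00805. PTGS1, the constitutive cyclooxygenase, was at 5.92, 0 and 1.31 with PhenDC3 and 10.1, 6.96 and 2.07 with DMSO, too low to test.

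G quadruplex motifs, of interest because the ligand binds such structures, were searched in the same RefSeq windows as 4 runs of 3 or more G joined by 1 to 7 bases, on both strands. At least 1 window of NFKB1, NFKB2, TNFAIP3 and SOD2 held one, 4 of 9 members, and no window of RELA, NFKBIA, BIRC3, ICAM1 or PTGS2 did. Of these 16 windows 7 held the motif, against 8778 of all 35116. In the first group NFKB2 and SOD2 rose and NFKB1 and TNFAIP3 did not pass, and in the second RELA, NFKBIA, BIRC3 and, less firmly, PTGS2 rose and ICAM1 was not tested. Over the 10290 tested genes with a window, 34.7% of those with the motif rose and 31.99% fell, and 28.2% of those without it rose and 34.4% fell. For the kB consensus the shares that rose were 32.5% with a match and 30.5% without, and those that fell 33.5% and 33.4%. These are descriptions of letters in a window, with no test.

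The genes whose values followed SOD2 most closely over the 6 libraries were EPC2, C16orf52 and C16orf72. Among 9139 other genes with a mean of 100 or more they had the smallest Euclidean distances to SOD2, 0.101, 0.116 and 0.155, in log2 values centred on each gene's mean. EPC2 averaged 1082 normalized counts with PhenDC3 and 328 with DMSO. The distance takes in the difference between the groups and the spread within them.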

How the data were processed

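Poly(A) RNA was sequenced from 6 libraries of HT-1080 cells, per the labels' protocols with TRIzol extraction and a stranded mRNA kit. Per the submitters' processing notes build hg19 and the tools STAR 2.7, TopHat2 2.0.11, featureCounts, Cufflinks 2.2.1, Cuffdiff, DESeq2 1.18.1 and CASAVA were named, with no role for each. The signal columns deposited hold reads per gene over a size factor of each library: dividing a column by its lowest nonzero entry gave whole numbers for 100% of entries (relative tolerance 1e-06). The table also holds the authors' log2 fold change, PhenDC3 over DMSO, and the authors' adjusted p-value, which 1332 genes lack.

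The planned test for normalized values, limma 3.58.1 in R 4.3.3, was run on log2(value + 1) with a variance trend, for genes with a mean of 5 or more. On the recovered reads edgeR 4.0.16 called 9817 genes and DESeq2 1.42.0 8477. Ratios used exact permutation in scipy 1.17.1. Exon lengths are from GENCODE 29 (GRCh38) and promoters from RefSeq (GRCh38.p14), matched by symbol.

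The lists, like the members, were chosen with earlier results of these data known. Named were all members and, per list, the called genes with the 4 smallest adjusted p. Also named were BIRC2, SOD1 and PTGS1, which are in the lists, as partners in the planned ratios, and genes said to be chosen after their values were seen. No libraries were close enough to be duplicates. Alternatives are given in the closing section.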

Additional observations from a re-analysis of the deposited data

How the results depend on the processing

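Of the members, 7 rose in limma with pseudocounts of 0.5 and 5, without the filter on low values, under both other scalings and with the replicate block, and 6, all but PTGS2, rose in edgeR, in DESeq2, in the authors' deposited table, without a variance trend and at an adjusted p under 0.01, and at a minimum mean of 20, where PTGS2 was not tested. Leaving out 1 library gave 6 to 7 members, 66 to 73 pathway genes (76 with all libraries) and 8965 to 9564 genes in all (9818). No setting run moved these counts by over 1.5 times. NFKB1, never called, had log2 fold changes of -0.041 to 0.0067 over the libraries left out, the positive one without DMSO replicate 3, and was also positive (0.0069) when scaled by total reads outside the mitochondrial genome; the cause was not tested. The log2 differences of the ratios ran over the libraries left out from 1.14 to 1.26 (NFKB2/NFKB1), 0.84 to 1.01 (RELB/RELA), 0.20 to 0.24 (NFKBIA/RELA), -1.10 to -0.88 (TNFAIP3/NFKBIA), 1.57 to 1.99 (BIRC3/BIRC2), 1.80 to 1.93 (SOD2/SOD1) and 1.34 to 2.97 (PTGS2/PTGS1), the last resting on 6 and 25 reads of PTGS1. REL lost its call in 9 settings, and BIRC6, COMMD1, HTRA2 and ICAM2 lost theirs in DESeq2. The replicate numbers share only a number: residuals of same-numbered libraries correlated at 0.008, 0.071 and 0.027. With the replicate block 10155 genes, 7 members and 76 pathway genes were called. ICAM1 was tested in limma only without a filter and did not pass (limma adjusted p = 0.809). Depth limits ICAM1, PTGS2 and PTGS1.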
